A study of Mus musculus with 2 samples.

Results

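The membrane-associated progesterone receptor (MAPR) family has 4 genes in the mouse, Pgrmc1, Pgrmc2, Nenf and Cyb5d2. They were taken by symbol from both deposited tables, and all 4 of the 4 were listed among the 16318 genes common to both. Liver RNA came from male mice aged 8 to 12 weeks on a C57BL/6 background, either Pgrmc1 KO (Pgrmc1 -/Y, 5 mice) or WT (5 mice), with 2.5 μg of RNA per mouse pooled into 1 library per genotype. In the KO mice, Sox2-Cre, which acts in the early embryo, had removed exons 1 and 2 of Pgrmc1 in the whole body, from a floxed allele made in C57BL/6N embryonic stem cells with a neomycin cassette between the loxP sites. Whether the WT mice carried Cre or a floxed allele was not given in the sources used here. Because mice were pooled before sequencing, the spread between mice was not measured, no test between genotypes was possible, and no difference has a replicate check. Levels are in TPM (a share of the transcript pool corrected for transcript length), and changes are log2((KO TPM + 1)/(WT TPM + 1)). A gene was counted as past the fold at 1.4-fold or more, or at 0.6-fold or less.

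Proteins of this family share a fold related to cytochrome b5, but a tyrosine coordinates the heme iron, where cytochrome b5 uses histidines. The study reported that PGRMC1 with this tyrosine changed to phenylalanine still bound heme with similar affinity. PGRMC1, in the endoplasmic reticulum membrane, binds cytochromes P450, the heme enzymes that oxidise drugs and sterols in the liver. PGRMC2, its closest relative, carries heme from the mitochondria to the nucleus, while Nenf (neudesin) and Cyb5d2 (neuferricin) encode secreted or membrane-bound proteins first studied in neurons. The comparison of KO with WT asks whether the deleted gene was silenced in the liver pool and how the transcripts of the other family members stood beside it.

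The genes lie on 4 chromosomes, with coordinates from GENCODE on GRCm38, the assembly also called mm10. Pgrmc1 lies on chromosome X (36598206 to 36606079, plus strand, 3 exons), Pgrmc2 on chromosome 3 (41066326 to 41083046, minus strand, 3 exons), Nenf on chromosome 1 (191306789 to 191318194, minus strand, 4 exons) and Cyb5d2 on chromosome 11 (72777232 to 72795856, minus strand, 4 exons). Their coding sequences hold 195, 217, 171 and 263 codons. Over the codons that could be aligned, Pgrmc1 and Pgrmc2 encoded the same residue at 58.5% of 176 positions, against 36.3% of 157 for Nenf and 36.1% of 147 for Cyb5d2. The best conserved stretch of 30 codons in all 4 genes is printed here because it holds the codon for the iron-coordinating tyrosine. It also spans the junction of exons 1 and 2 of Pgrmc1, both of which the KO allele lacks. It covers codons 95 to 124 of Pgrmc1, 119 to 148 of Pgrmc2, 69 to 98 of Nenf and 61 to 90 of Cyb5d2. Written 5′ to 3′ on the coding strand, capitals mark the 38 of 90 bases that are identical in all 4 genes.
Pgrmc1: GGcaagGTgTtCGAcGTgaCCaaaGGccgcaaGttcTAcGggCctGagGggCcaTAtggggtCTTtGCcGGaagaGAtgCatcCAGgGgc
Pgrmc2: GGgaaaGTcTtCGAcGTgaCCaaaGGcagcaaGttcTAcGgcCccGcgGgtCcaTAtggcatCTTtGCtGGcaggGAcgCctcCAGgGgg
Nenf: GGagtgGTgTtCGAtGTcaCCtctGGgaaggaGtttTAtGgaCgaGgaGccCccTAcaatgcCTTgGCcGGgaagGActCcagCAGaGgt
Cyb5d2: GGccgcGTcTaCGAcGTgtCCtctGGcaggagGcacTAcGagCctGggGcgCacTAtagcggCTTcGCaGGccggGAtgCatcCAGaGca
Of the 90 bases, Pgrmc2 shared 74 with Pgrmc1, Cyb5d2 shared 60 and Nenf shared 51. The tyrosine codon lies at codon 113 of Pgrmc1 and, by alignment, at codon 137 of Pgrmc2, 87 of Nenf and 79 of Cyb5d2, and each of these encodes tyrosine. Despite this conservation, no exact stretch of 100 bases was shared with the transcripts of other genes. Matches with mismatches were not searched for, so this does not show that no reads were shared. Of the windows of 100 bases along each member's transcript (1758 for Pgrmc1, 2908 for Pgrmc2, 643 for Nenf and 2294 for Cyb5d2), 0 were found in the sense strand of a GENCODE transcript of any other gene.

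Pgrmc1 was the member whose level differed most between the pools. Its transcript stood at 949.49 TPM in WT liver and at 0.68 TPM in KO liver. In WT it ranked 109th of 16318 genes, within the top 0.668% of the table, and in KO it ranked 12087th. The log2 change was -9.14, and the KO level was 0.0716% of the WT level. In the second table, which holds estimated reads scaled by a size factor (called the authors' means), the value was 17.4 in KO and 25669 in WT. These means correspond to about 15 reads in KO and 29832 reads in WT. The KO mean was therefore 0.0679% of the WT mean, with an exact 95% interval of 0.0380% to 0.112%. This interval, like those of the other ratios, is a Clopper-Pearson interval from estimated reads and covers counting error only, not differences between mice. Intervals printed beside log2 changes of other genes are those of the log2 ratio of the authors' means, which are not corrected for length and need not centre on the change in TPM. In the family, 1 of 4 genes was past the fold downward and 0 upward, while over all 16318 genes the shares were 0.233% downward and 0.925% upward. The 1 gene is the deleted gene itself, whose level checks the labels of the libraries.

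The deleted exons carry most of the protein but the smaller part of the transcript. Exons 1 and 2 of Pgrmc1 hold 565 of its 1857 transcript bases and 484 of its 585 coding bases (82.7%), which is 161 whole codons. Exon 3, which the KO allele retains, holds 1292 bases, or 69.6% of the transcript. Since about 15 reads were assigned to the whole gene in KO, no more than these can have been assigned to the retained exon. Reads of that exon that were not assigned to the gene would not be counted. From values per gene, it cannot be said on which exon the 15 reads lay.

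By the study's methods, the deleted segment begins upstream of exon 1 and so also holds the promoter. The 250 bases before the RefSeq start of Pgrmc1 (chrX:36597943-36598192, plus strand, GRCm38.p6) are shown for that reason, beside those of Pgrmc2 (chr3:41083047-41083296, minus strand), which the deletion does not touch. Both are written 5′ to 3′ on the strand of the gene, and capitals mark GC boxes, the letters GGGCGG on either strand.
Pgrmc1: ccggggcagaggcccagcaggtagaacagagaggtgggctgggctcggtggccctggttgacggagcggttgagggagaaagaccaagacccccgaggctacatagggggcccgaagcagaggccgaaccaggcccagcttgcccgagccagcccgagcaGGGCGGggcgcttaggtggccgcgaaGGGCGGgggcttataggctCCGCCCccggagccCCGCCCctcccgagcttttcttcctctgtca
Pgrmc2: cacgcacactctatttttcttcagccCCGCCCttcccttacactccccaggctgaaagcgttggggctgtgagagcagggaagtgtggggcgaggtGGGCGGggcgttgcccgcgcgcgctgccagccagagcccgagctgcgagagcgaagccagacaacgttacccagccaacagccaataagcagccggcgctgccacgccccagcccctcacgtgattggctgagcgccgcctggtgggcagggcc
RefSeq promoter sequences were found for 3 of the 4 members, the exception being Nenf. The Pgrmc1 window held 4 GC boxes, the Pgrmc2 window 2 and the Cyb5d2 window 1, while 32.7% of 32851 promoter windows of the same length held at least 1. The letters CCAAT on either strand occurred 2 times before Pgrmc2 and 0 times before Pgrmc1 and Cyb5d2, against at least once in 33.8% of all windows. The palindrome CACGTG (E-box) was found 1 time before Pgrmc2, and in 6.02% of all windows. TATAAA on either strand was in none of the 3 windows, against 12.4% of all windows. The GC content was 69.6% for Pgrmc1, 67.2% for Pgrmc2 and 49.6% for Cyb5d2, beside a median of 52.4% over all windows. These matches describe letters only.

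**Figure D1:**
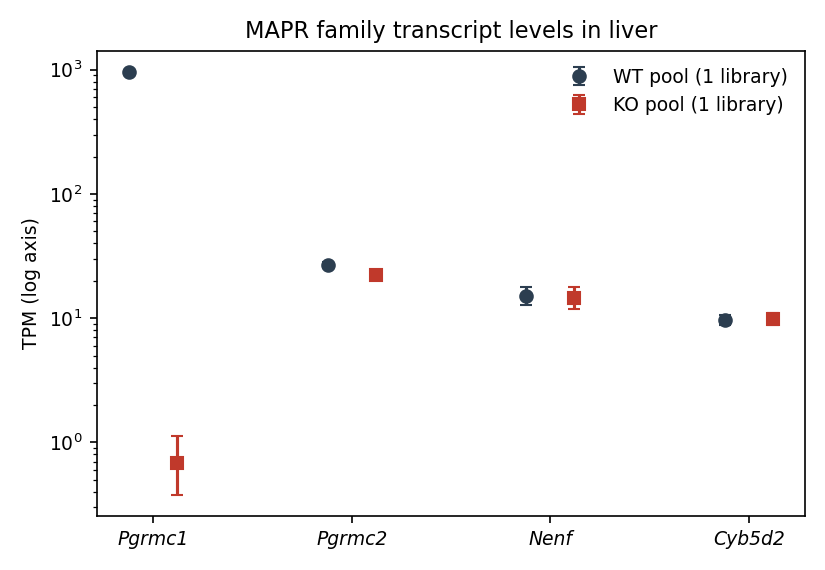
Level of each MAPR family gene in the WT pool (circles) and the KO pool (squares), in TPM on a log axis; each point is 1 library, and bars are exact 95% Poisson intervals from estimated reads, which cover counting error only. Pgrmc1 lies at 949.49 TPM in WT and at 0.68 TPM in KO, while the points of the other members lie close together in both pools.

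Pgrmc2, the paralog that carries heme to the nucleus, was slightly lower in the KO pool and did not pass the fold. It stood at 22.40 TPM in KO, against 26.74 TPM in WT. The exact 95% Poisson intervals of these levels, 21.0 to 23.9 TPM and 25.4 to 28.2 TPM, did not overlap. The KO level was 16.2% lower, and the log2 change of -0.25 stayed short of the fold of 0.6. The ratio of the authors' means was 84.5%, with an interval of 77.6% to 91.9% from 895 reads in KO and 1431 in WT, so counting error alone does not cover equality. Among the 6184 genes averaging 10 TPM or more over the pools, 5.34% had a lower change than Pgrmc2. Among the genes whose mean level lay within 1.5-fold of that of Pgrmc2, the share was 5.22%. Pgrmc2 thus stood near the lower edge of the bulk of genes, whose 5th percentile was -0.25 and 95th percentile 0.19.

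In these bulk pools, fewer cells of a type and less RNA per cell cannot be told apart. Hepatocyte markers were high in both libraries, as the 5 markers Alb, Apoa1, Ttr, Tat and Cps1 reached 68290 TPM in KO and, in WT, 71644 TPM. Markers of stellate cells reached 189 TPM in KO and 214 in WT (KO over WT 0.881), and those of endothelial cells 121 and 135 TPM (0.893). For Kupffer cells, the resident macrophages, the sums were 177 and 157 TPM (1.13). In each of these lists, 5 of 5 markers averaged at least 1 TPM, and none of their markers was listed at 0. The hepatocyte and stellate sums are carried largely by Alb and Dcn, and single markers varied more widely. Log2 changes ran from -0.28 to 0.00 for hepatocyte, -0.53 (Rgs5) to 0.17 (Lrat) for stellate, -0.60 (Lyve1) to -0.04 for endothelial and 0.10 to 0.19 for Kupffer cell markers, so the value of Pgrmc2 lay within the range of several lists. Sums for cholangiocyte markers (62.0 and 66.9 TPM), red cell markers (1412 and 1429 TPM) and lymphocyte markers (6.39 and 7.01 TPM) were also slightly lower in KO. Their part in the value of Pgrmc2 was not tested.

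For Nenf and for Cyb5d2, the counting interval of the ratio between pools held equality. Nenf, which encodes a secreted growth factor-like protein, was at 14.58 and 15.10 TPM in KO and WT, a log2 change of -0.05. The ratio of the authors' means was 98.3%, with a wide interval of 75.1% to 128% from 99 reads in KO and 136 in WT on a transcript of 742 bases, the shortest of the family. A difference of up to about that size in either direction was not detectable for Nenf at this depth. Cyb5d2, which encodes a heme-binding protein with a cytochrome b5-like domain, was at 9.88 TPM in KO against 9.68 TPM in WT, a log2 change of 0.03. Its ratio of means was 103% with an interval of 88.5% to 120%, from 306 and 401 reads. Of the 6184 genes averaging 10 TPM or more, 41.3% had a lower change than Nenf and 67.5% a lower change than Cyb5d2, so both stood in the middle of the distribution.

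**Figure D2:**
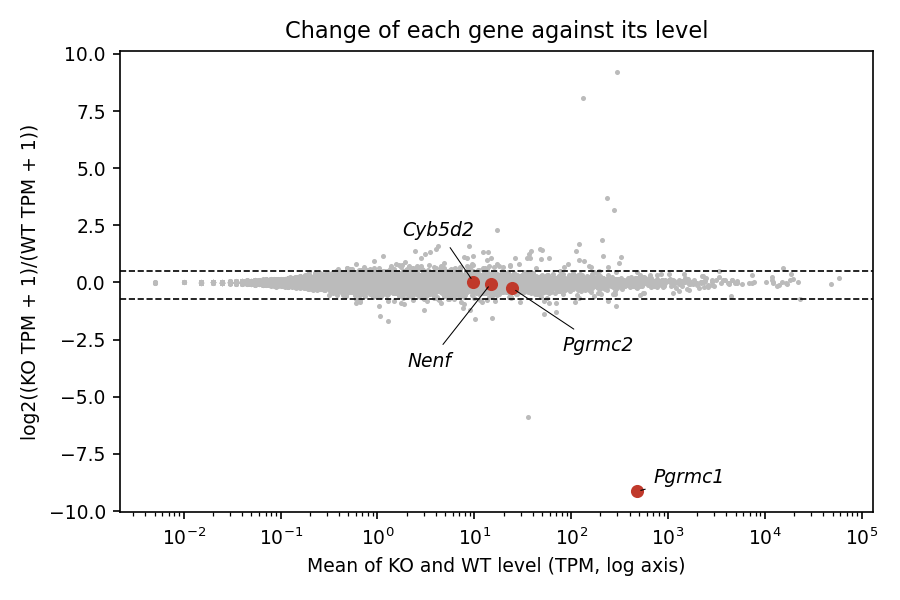
Change of each gene, log2((KO TPM + 1)/(WT TPM + 1)), against the mean of its KO and WT level in TPM on a log axis, for the genes in both tables with a level above 0. MAPR family genes are in red and dashed lines mark folds of 1.4 and 0.6; Pgrmc1 sits at -9.14, below every other gene, while Pgrmc2, Nenf and Cyb5d2 lie inside the band of all genes.

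Pgrmc1 dominated the family in WT liver and was its rarest member in KO liver. In WT the order by TPM was Pgrmc1, Pgrmc2, Nenf and Cyb5d2, with Pgrmc1 35.5 times as high as Pgrmc2, 62.9 times as high as Nenf and 98.1 times as high as Cyb5d2. In KO, Pgrmc2, Nenf and Cyb5d2 kept that order, and Cyb5d2 was 14.5 times as high as Pgrmc1. No neighbours in either order had overlapping Poisson intervals; the closest pair was Nenf and Cyb5d2 in KO, at 11.8 to 17.8 TPM against 8.79 to 11.0 TPM. Pgrmc1 made up 94.9% of the summed family TPM in WT and 1.43% in KO.

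The summed level of the other members was not higher in KO liver. The 4 genes together reached 1001.01 TPM in WT against 47.54 TPM in KO, or 4.75% of the WT sum. Without Pgrmc1, the sum was 51.52 TPM in WT against 46.86 TPM in KO. While Pgrmc1 fell by 948.81 TPM, the difference of this sum, KO minus WT, was -4.66 TPM. The log2 ratio of that sum was -0.14, and the interval from the authors' means ran from -0.27 to -0.06. Of the members in this sum, Pgrmc2 had the widest difference, -4.34 TPM.

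No other gene had a pattern close to that of Pgrmc1. The measure of likeness was the distance between genes in log2(TPM + 1) over the KO and the WT library, that is over 2 points, so it says only that levels were alike. By that measure the nearest genes to Pgrmc1 were Cyp2a4 at a distance of 3.75 and Gm6484 at 5.49. Cyp2a4, a P450 gene, was at 0.22 and 70.88 TPM in KO and WT. Gm6484 was at 28.32 TPM in KO against 76.34 TPM in WT. Among genes with at least 10 TPM in WT, the lowest changes after that of Pgrmc1 were those of Cyp2a4 (-5.88), Snora81 (-1.59) and Rpl30 (-1.56), with a wide gap between Cyp2a4 and the others. Cyp2a4 has near-identical relatives, and how the counting split reads among them makes its own level uncertain. The value of Snora81, a short RNA, rests on about 3 reads in WT and 0 in KO, and is not read as expression. That of Rpl30 rests on 26.85 estimated reads in KO and 147.94 in WT. These are not whole numbers, and whether its reads were shared with other loci was not tested, so its level is also uncertain. By contrast, the other family members had close company. Snap23 and Rragc lay at distances of 0.0193 and 0.0257 from Pgrmc2, Fto and Reps2 at 0.0103 and 0.0129 from Nenf, and Cpsf2 and Utp14a at 0.00135 and 0.00541 from Cyb5d2.

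Genes of other proteins with a cytochrome b5 domain had a median change slightly above 0. Of the 9 on this list, 8 were in both tables, all averaging at least 1 TPM, and 0 of 8 were past the fold in either direction. Over all 11543 genes at that level, 1.09% were past the fold upward and 0.303% downward, so that a count of 0 in a list of this size is near the background and no result about its genes. The median log2 change of the list was 0.06, beside -0.01 over those 11543 genes. Cyb5, the older symbol of Cyb5a and the gene of microsomal cytochrome b5, which passes electrons to P450 enzymes, was the most abundant, at 1678.54 and 1548.80 TPM in KO and WT. Its log2 change was 0.12, with an interval of the ratio of means of 0.11 to 0.17. In WT, Cyb5 was thus the only gene of this list above Pgrmc1 in level. Cyb5b, the form on the outer mitochondrial membrane, was at 227.18 TPM in KO against 226.08 TPM in WT. The fatty acid desaturase genes Fads1 and Fads2, whose enzymes carry a fused cytochrome b5 domain, had log2 changes of -0.08 and -0.06. Suox, the sulfite oxidase gene, was at 80.34 and 74.00 TPM in KO and WT. Cyb5d1, the highest of the list, was at 18.61 TPM in KO against 14.21 TPM in WT, a log2 change of 0.37 with an interval of 0.09 to 0.74 from 155 and 157 reads. Fa2h was in the TPM table alone, at 0.03 and 0.02 TPM in KO and WT.

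Among transcripts of the enzymes that supply electrons to P450 and cytochrome b5, Cyb5r3 was the lowest. Over the 7 of 8 that averaged at least 1 TPM, the median log2 change was -0.05, and 0 of the 8 were past the fold, near the background of 0.925% upward and 0.233% downward over all genes. Cyb5r3, the main cytochrome b5 reductase, was at 250.08 TPM in KO against 287.74 TPM in WT, a change of -0.20 with an interval of -0.23 to -0.14. Its interval was the only 1 of the 7 that did not hold 0. Por, which encodes the reductase of microsomal P450 enzymes, had an interval of -0.03 to 0.07. Fdxr, the first carrier in the electron chain of mitochondrial P450 enzymes, was at 12.39 and 13.55 TPM, and its partner Fdx1 at 109.42 and 113.71 TPM.

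Genes of proteins reported to bind PGRMC1 had the lowest median of the lists, -0.13 over 9 genes. The count past the fold was 0 of 9, near the background of 1.09% upward and 0.303% downward. Insig1, an endoplasmic reticulum protein that restrains sterol synthesis, was lowest, at 248.17 and 316.99 TPM in KO and WT (log2 change -0.35, interval -0.38 to -0.30). Cyp51, the sterol demethylase bound by PGRMC1, had 80.30 TPM in KO against 96.82 TPM in WT. Its change was -0.27, with an interval of -0.31 to -0.21. The study counted this transcript as unchanged in KO liver, and here too it stayed short of the fold. The interval covers counting error only. Sc5d, the lathosterol oxidase gene, had a change of -0.20, and Fech, whose product inserts iron into heme, one of -0.13. Scap, the escort of the sterol-regulated transcription factors, was at 67.43 and 65.77 TPM in KO and WT. Serbp1, an RNA-binding partner, was at 40.39 and 42.02 TPM. Higher in KO beyond counting error were Tmem97, the sigma-2 receptor gene, with a change of 0.15, and Egfr, the epidermal growth factor receptor gene, with a change of 0.22. Counting intervals lay below 0 for 5 of the 9 genes and above 0 for 2. The partners were picked from general knowledge and include several targets of the same sterol-regulated factors, so they are not independent of each other.

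Among genes of heme synthesis, breakdown, transport and sensing, the lowest values were those of sensors. The median log2 change of the 16 genes was -0.03, and 0 were past the fold, near the background of 1.09% upward and 0.303% downward. Alas1, the rate-limiting enzyme of heme synthesis in the liver, was at 174.74 TPM in KO against 179.60 TPM in WT, a change of -0.04. Of the other enzymes of the synthesis pathway, Alad, Uros, Urod, Cpox and Ppox lay between -0.03 for Ppox and 0.14 for Uros, and the counting interval of each held 0. Hmox1, which breaks heme down, was at 14.74 and 17.77 TPM in KO and WT (-0.25, interval -0.47 to -0.04). Nr1d1 and Nr1d2 encode the Rev-erb receptors, which bind heme and repress clock genes, and PGRMC2 delivers heme to them. Nr1d1 was at 23.84 TPM in KO against 31.87 TPM in WT, a log2 change of -0.40, and Nr1d2 at 31.74 and 41.20 TPM, a change of -0.37. Bach1, a repressor released from DNA by heme, was at 16.24 and 20.56 TPM in KO and WT, a change of -0.32. These 3 and Hmox1 were the 4 genes whose intervals lay below 0, and all of the other 12 intervals held 0. Nr1d1 and Nr1d2 vary with the time of day, and the harvest time of the pools was not given in the sources used here, so its part was not tested.

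Among other receptors for progesterone, only 2 averaged at least 1 TPM in this tissue. Paqr9, a membrane progestin receptor, was at 196.92 TPM in KO against 168.31 TPM in WT, a log2 change of 0.23 with an interval of 0.19 to 0.29. Paqr7, of the same family, was at 15.61 and 13.67 TPM in KO and WT, a change of 0.18 with an interval of 0.07 to 0.35. In KO liver, the level of Paqr9 was thus above that of every MAPR gene. Paqr5, Paqr6 and Paqr8 lay between 0.03 and 0.40 TPM in both libraries. Pgr, the nuclear progesterone receptor, was in the TPM table alone, at 0.01 TPM in both. Of the 5 in both tables, 0 were past the fold, near the background of 0.925% upward and 0.233% downward.

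**Figure D3:**
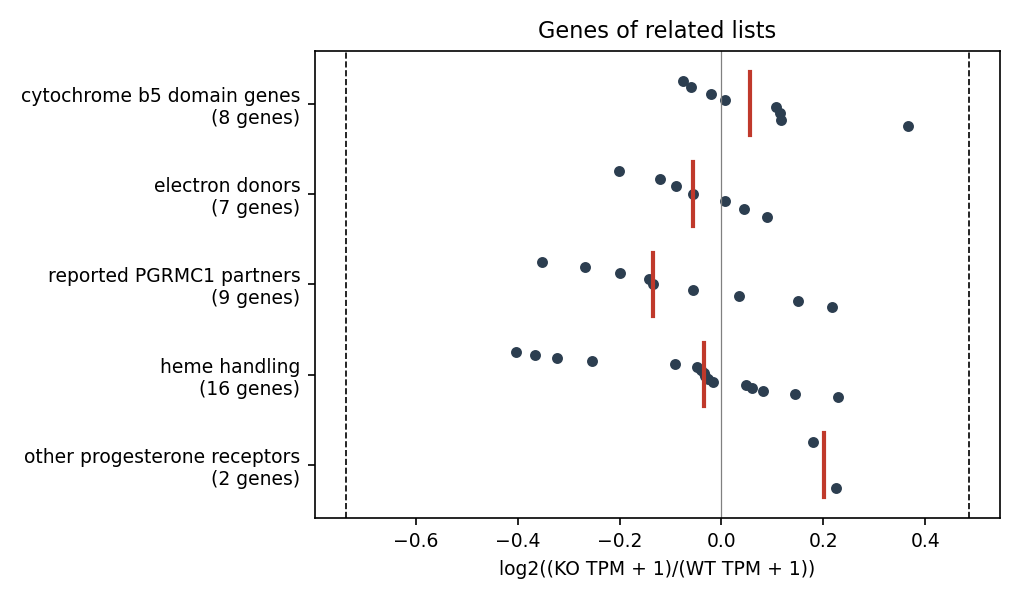
Change of each gene averaging at least 1 TPM in 5 lists related to the MAPR family; each point is 1 gene, red bars are list medians and dashed lines mark folds of 1.4 and 0.6. All points lie between the dashed lines, with Nr1d1 (-0.40) farthest to the left and Cyb5d1 (0.37) farthest to the right.

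The genes around the deletion had a median change near 0. Distances between genes were taken between their lower coordinates, whatever the strand, so for genes on the minus strand they are measured from the 3′ end. By that measure RefSeq places 27 other genes within 500 kb of Pgrmc1 on chromosome X. Of these, 11 were in both tables, and 9 of the 11 averaged at least 1 TPM. The median log2 change of the 9 was 0.02, and 0 of the 11 were past the fold, near the background of 0.925% upward and 0.233% downward. Akap17b, the nearest, has its lower coordinate 9.98 kb above that of Pgrmc1 and was at 3.51 TPM in KO against 2.78 TPM in WT. Its log2 change of 0.25 had an interval of 0.11 to 0.58. Lonrf3, on the other side at 270 kb, was at 3.71 and 2.93 TPM in KO and WT, a change of 0.26 with an interval of 0.14 to 0.55. For both, the counting interval lay above 0, but such values were not rare: of the genes within 1.5-fold of their level, 91.3% had a lower change than Akap17b and 91.8% a lower change than Lonrf3. Slc25a5, an abundant mitochondrial ADP/ATP carrier gene at 197 kb, was at 463.28 TPM in KO against 453.30 TPM in WT, a change of 0.03. For the remaining 6 genes the counting interval held 0, among them Rpl39, a ribosomal protein gene (508.69 and 516.71 TPM in KO and WT).

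Around the other family members, whose loci are intact, the values were of the same order. The medians were -0.02 over 6 neighbours of Pgrmc2, 0.13 over 9 neighbours of Nenf and 0.00 over 12 neighbours of Cyb5d2 at or above that level. Near Pgrmc2, Larp1b, the closest of these genes at 117 kb, was at 75.76 TPM in KO against 86.19 TPM in WT, a change of -0.18 with an interval of -0.26 to -0.08. Near Nenf, 7 of 9 genes lay above 0, among them Ppp2r5a, a subunit of protein phosphatase 2A, at 114.96 and 105.66 TPM in KO and WT. Near Cyb5d2, Zzef1 and Ankfy1 had changes of -0.02 and -0.04. Over all 56 neighbours of the 4 genes, 0 were past the fold in either direction, again near the background of 0.925% and 0.233%.

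**Figure D4:**
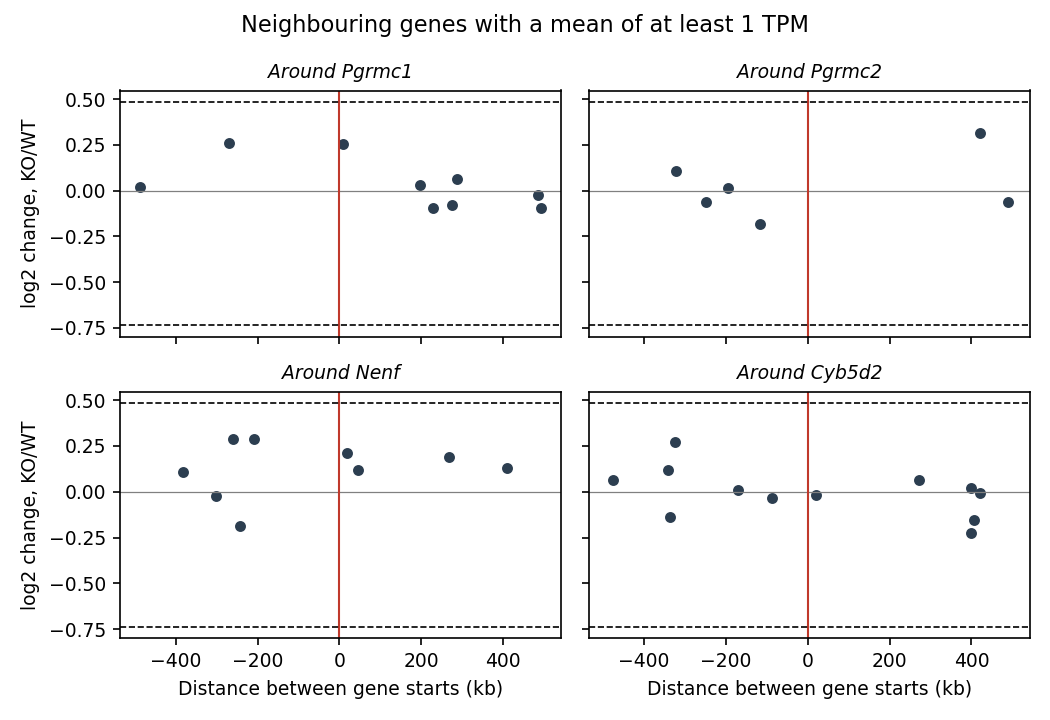
Log2 change of genes averaging at least 1 TPM against their distance from the MAPR gene (red line), in kb, with 1 panel for each locus. Distances are between the lower annotated coordinates of the genes, whatever the strand. Each point is 1 gene and dashed lines mark folds of 1.4 and 0.6. The points run from -0.22 for Tax1bp3 near Cyb5d2 to 0.31 for C430002E04Rik near Pgrmc2, and none crosses a dashed line.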

How the data were processed

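Per the labels and the study's methods, total RNA was sequenced as paired reads from a stranded kit, and RSEM 1.2.09 with Bowtie on mm10 made the files after CASAVA 1.8.2. The authors deposited posterior mean TPM for 24054 genes, in columns that sum to 1005325 in KO and 994702 in WT, and, from EBSeq, the signal of 16318 genes (estimated reads divided by a size factor), called here the authors' means. Probabilities and fold changes of the authors' own comparison, also in that file, were not used. Columns of the means are headed C1 and C2, and were taken as KO and WT from the title of the file and from the headings of the study's own table.

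The most frequent value above 0 was taken as 1 read (1.16 in KO and 0.860 in WT), which gives 22086688 reads in KO and 29710410 in WT. Estimated reads of 5 of the 8 member values were whole within 0.02. The others were Pgrmc1 in WT (29831.8) and Cyb5d2 in KO (306.36) and WT (401.5). Whether reads of these genes were shared with other loci was not tested. With 1 library per genotype no test was run. Exact 95% intervals (Clopper-Pearson for ratios, Poisson for levels) used reads rounded to whole numbers. Named genes were the members, the lists, the 2 nearest genes by level of each member and the 3 lowest changes at 10 TPM or more in WT. Single values of some list genes are not reported here. The members and lists were chosen with earlier results of these data known. Older symbols were matched through RefSeq. Coding alignments used BLOSUM62. Python 3.11.15, numpy 2.4.6, pandas 2.3.3, scipy 1.17.1, Biopython 1.88 and matplotlib 3.10.9 were used, and calls and intervals were tested on simulated data. The simulation drew Poisson counts for genes averaging 10 TPM or more, with folds of 2 and 0.5. It held no spread between mice and no reads shared between loci. It therefore checks the code under counting error alone, and not for lower genes.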

Additional observations from a re-analysis of the deposited data

How the results depend on the processing

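No paired analysis was possible because KO and WT are 1 pooled library each. Pgrmc1 was past the fold downward in 5 of 5 settings and Pgrmc2, Nenf and Cyb5d2 in 0 of 5, with changes of -0.25 to -0.23, -0.05 to -0.02 and 0.03 to 0.04. The change of Pgrmc1 was -10.25 with a pseudocount of 0.1 TPM and -10.44 with the authors' means. With those means, which are not corrected for length, the log2 ratio of the family sum was -4.16 in place of -4.40. Genes past the fold numbered 1044 upward and 263 downward with 0.1 TPM, 1555 and 1161 with the authors' means, 50 and 17 among genes averaging 10 TPM or more, and 33 and 13 with folds of 2 and 0.5, against 151 and 38; with the mirror of the rise (0.714), 140 were downward. A smaller pseudocount lets lower genes pass by construction, and the cause was not tested for the authors' means. The median of the progesterone receptor list was 0.041 without a filter on low values, which adds 3 genes near 0. The other 37 values moved by less than counting error, or by less than 1.5 times for counts. Pooling limits every value, and depth also limits Pgrmc1 in KO and Nenf.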
